A study of Mus musculus with 4 samples.

Results

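Broad domains of RNA polymerase II (Pol II) are stretches of the genome where Pol II tags stay dense over several kilobases instead of forming 1 narrow peak. They were chosen here by tag density alone. Tags of the 4 libraries were added up in bins of 1 kb on chromosomes 1 to 19, and a run of at least 3 consecutive bins with at least 40 tags each was 1 domain. This gave 960 domains among 11033 runs of such bins, that is 8.70% of the runs. The other runs had 1 bin (6818) or 2 bins (3255). The domains covered 3508 bins, or 20.8% of the bins in all runs.

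The libraries came from chromatin immunoprecipitation of Rpb1, the largest Pol II subunit, in V6.5 embryonic stem cells of the C57BL/6-129 background. Cells carried a short hairpin RNA, directed at Spt4 in the group shSpt4, at Spt5 in shSpt5 and at NelfE in shNelfE, and at no named target in shControl. Each group held 1 library. Hairpins acted for about 4 days, and all cultures, the control included, received flavopiridol at 1 µM for 1 h before crosslinking. Stem cells were kept on irradiated mouse embryonic fibroblasts and were grown without them for 2 passages before the knockdown samples and 1 passage before the control sample. The control library was also sequenced on another flow cell, so passage, flow cell and hairpin cannot be told apart in comparisons with it. The labels do not say whether a culture was a clone or a pool, and neither the knockdowns nor the stem cell identity was checked here, since the files name no genes.

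Pol II that has started transcription often stops a short distance downstream of the promoter. DSIF, made of Spt4 and Spt5, and NELF, of which NelfE is a subunit, bind it there, and the kinase Cdk9 releases it by phosphorylating these factors and the Pol II tail. Flavopiridol inhibits Cdk9, so under this drug most Pol II is held near promoters. Dense Pol II over several kilobases can be found where promoters lie close together, where transcription runs both ways from a promoter, at short and highly transcribed genes, and in clusters of such genes.

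Because tag counts chose the domains, their height and width are given as a description. Of the 960 domains, 652 were 3 kb wide, 181 were 4 kb, 95 were 5 or 6 kb and 32 were 7 kb or more. The widest, on chromosome 11, spanned 70 kb, and the next spanned 13 kb. Summed over the libraries a domain held a median of 423 tags, from 124 to 14059. The 10 fullest domains held 8.51% of all tags in domains. At the lower edge, 62 domains had a weakest bin of exactly 40 tags and 259 had one below 45. From here on, 4 tag counts in a row are those of shControl, shSpt4, shSpt5 and shNelfE, always in this order, and 3 ratios in a row are those of shSpt4, shSpt5 and shNelfE to the control. The emptiest domain with a weakest bin of 40 lay on chromosome 5, 122719000 to 122721999, and held 38, 40, 17 and 29 tags. The next were on chromosome 4 (138559000 to 138561999), with 32, 36, 20 and 41 tags, and on chromosome 6 (39328000 to 39330999), with 37, 37, 16 and 47. Lowering the minimum to 39 would have added 36 stretches, among them chromosome 7, 100711000 to 100713999, with 39, 23, 19 and 42 tags. Chromosome 10, 79533000 to 79535999, had 34, 26, 26 and 38 tags, and chromosome 8, 125298000 to 125300999, had 37, 35, 26 and 28. Members just inside and stretches just outside the rule thus held like numbers of tags.

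Most domains had more than 1 summit, which the rule did not ask for. Summits were counted in tags smoothed over 250 bp, at least 500 bp apart and at least 50% as high as the highest, with a dip to 50% or less of the lower one between them. By this measure 404 domains (42.1%) had 1 summit, 346 had 2 and 210 had 3 or more. Runs of 2 bins had 1 summit in 72.6% of cases, but they are narrower and leave less room for summits 500 bp apart. In domains with few tags, counting error can also make the dips between summits. Chromosome 4, 138559000 to 138561999, with 129 tags over the libraries, had 5 summits. Summits of domains with 2 lay a median of 1025 bp apart. Among the 652 domains of 3 kb, the middle bin was the strongest in 386 (59.2%), where it is 33.3% of the bins. The rule keeps the bins past the ends below the minimum, which by itself favours the middle bin. The strongest bin held a median of 51.9% of the tags in domains of 3 kb, 42.3% in those of 4 kb and 32.1% in those of 5 kb or more.

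The extremes of shape show the range. Chromosome 1, 72187000 to 72189999, was almost 1 narrow peak, with 93.8% of its tags in the middle bin. Its 3 bins held 14, 423 and 11 tags in shControl, 12, 440 and 10 in shSpt4, 11, 427 and 24 in shSpt5, and 8, 520 and 30 in shNelfE. Chromosome 3, 96642000 to 96645999, and chromosome 8, 32633000 to 32635999, were nearly as concentrated, with 89.1% and 87.8% in the strongest bin. At the other end, chromosome 7, 132839000 to 132849999, was an 11 kb plateau. Its strongest bin, as chosen on the libraries at equal depth, held 13.9% of the tags. Its bins held 17 to 36 tags in shControl, 8 to 21 in shSpt4, 7 to 31 in shNelfE and 3 to 15 in shSpt5. Chromosome 8, 72837000 to 72845999, was a 9 kb plateau with 8 summits, at 10 to 35 tags per bin in shControl and 1 to 8 in shSpt5. The flattest of all by this measure was the 70 kb domain, at 6.59%, where many bins lower the share by themselves.

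**Figure D1:**
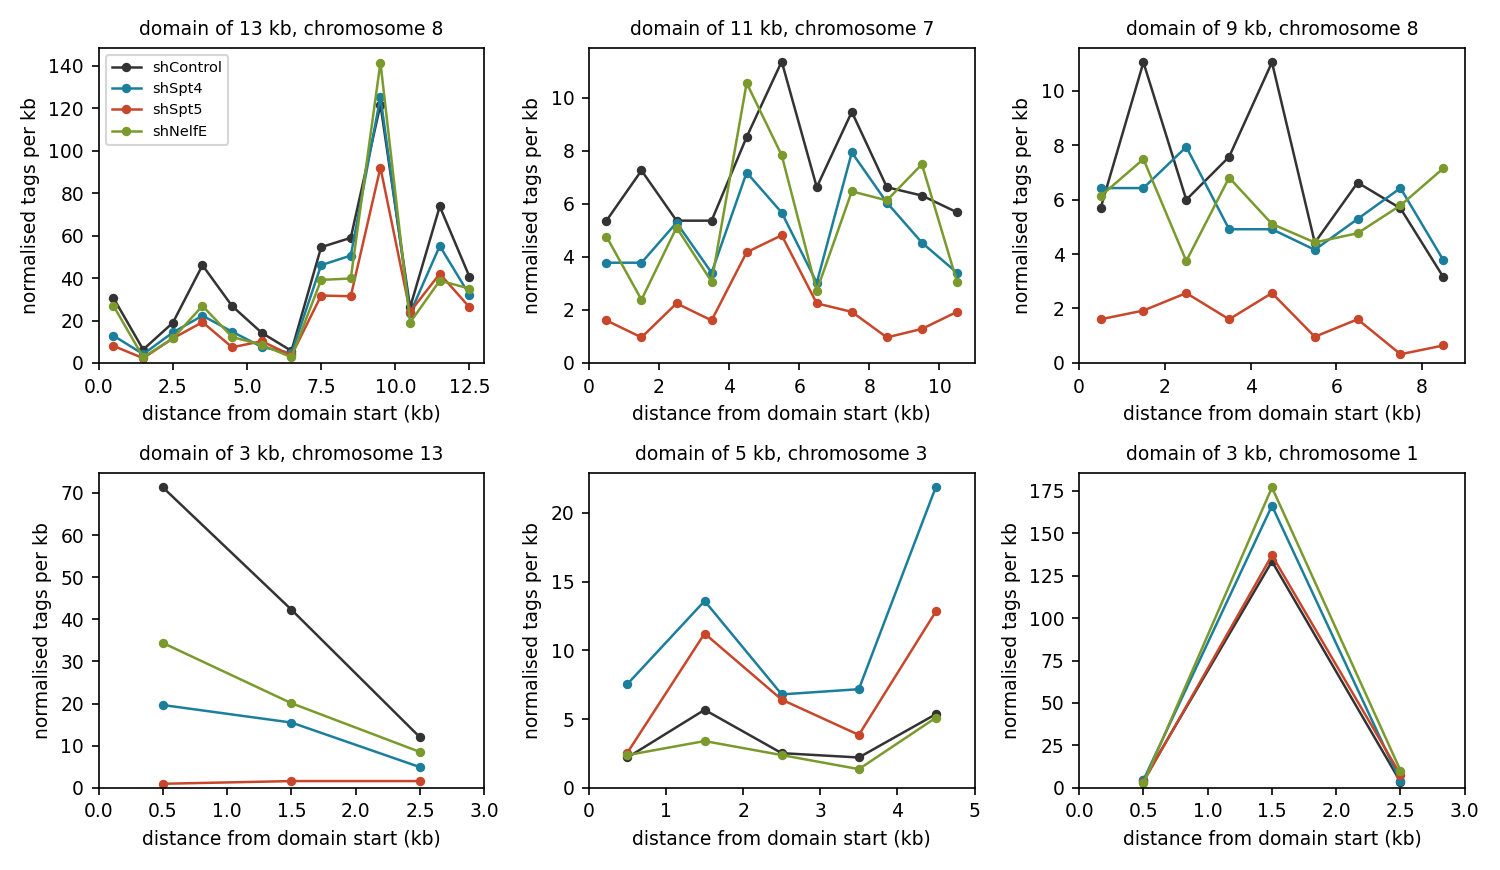
Normalised tags per kb (tags per 1000000 kept tags) in each 1 kb bin of 6 domains, plotted against distance from the domain's start, with 1 line for each library. The 11 kb and 9 kb plateaus and the 3 kb domain on chromosome 13 run lowest in shSpt5 in each bin, the 5 kb domain on chromosome 3 runs highest in shSpt4, and the narrow crest on chromosome 1 is highest in shNelfE and lowest in shControl.

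Domains lay close to other dense bins. Another run of dense bins stood within 10 kb of 488 domains (50.8%), against 32.7% of runs of 1 bin and 32.8% of runs of 2 bins, counts that share their neighbours. A single bin below the minimum splits a broad stretch into separate runs. Some of these neighbours may thus be parts of the same stretch, and how many was not counted. Chromosome 11 carried the most domains, 98, or 0.805 per Mb, and chromosome 16 the fewest, 21, or 0.214 per Mb. As a share of a chromosome's runs, domains ranged from 6.07% on chromosome 16 to 11% on chromosome 8. With gaps of up to 50 kb joined, 608 domains stood alone, 109 groups had 2, and 134 domains fell into 36 groups of 3 or more. The largest groups had 6 domains each, on chromosome 8 (87865000 to 87962999) and chromosome 11 (97442000 to 97519999).

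The libraries kept 3170090, 2646944, 3116313 and 2938052 tags. Domains held 5.32% of the control's tags (exact binomial 95% interval 5.29 to 5.34%). They held 4.44% of those of shSpt4 (4.41 to 4.46%), 3.28% of those of shSpt5 (3.26 to 3.30%) and 4.13% of those of shNelfE (4.11 to 4.16%). Of the tags in all runs, domains took nearly the same part in each library, from 24.66% in shControl to 24.96% in shNelfE. Windows of 1 Mb that held no dense bin, 677 Mb in all, held more normalised tags (tags per 1000000 kept tags) in the knockdown libraries, with ratios to the control of 1.27, 1.47 and 1.24. With the mean level of these windows subtracted from each bin, the median log2 ratio of domains to the control was -0.31, -0.80 and -0.42, against -0.29, -0.76 and -0.40 without subtraction. All intervals cover counting error of these libraries only, and a ratio compares 2 libraries, not 2 conditions.

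The median domain had 12.9 normalised tags per kb in the control, 10.45 in the shSpt4 library, 9.76 with shNelfE and 7.70 with shSpt5. The control was the highest of the 4 libraries at 692 domains and the lowest at 28. The shSpt5 library was lowest at 700 domains and highest at 36. The 2 commonest orders made up most of the set: shControl over shSpt4 over shNelfE over shSpt5 at 322 domains, and the same with shNelfE and shSpt4 exchanged at 235. The shSpt4 library was highest at 170 domains, more than shNelfE with 62.

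The shSpt5 library had the fewest tags at the domains. Its ratio to the control was below 1 at 891 of 960 domains, the median log2 ratio was -0.76 (interval of the median over domains -0.80 to -0.74), and the middle 80% of ratios ran from 0.344 to 0.930. A domain was called lower or higher where the ratio passed 2-fold and its exact 95% interval excluded 1. In shSpt5, 306 domains (31.9%) were called lower and 6 higher, where 32.4% of all runs were called lower and 0.607% higher. The median over all runs was also -0.76. The called share of the domains was thus near that of dense bins in general, and single domains differed widely around the median. With the control left out of the rule and 30 tags per bin asked of the knockdown libraries, 804 domains qualified. Of these, 204 were called lower in shSpt5, and the median was -0.72. The share of all runs called under that rule was not counted.

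The lowest ratios in shSpt5 lay in 1 place on chromosome 13. The domain at 44913000 to 44915999 had 398 tags in shControl, 106 in shSpt4, 13 in shSpt5 and 185 in shNelfE. Its ratio to the control was 0.0332 in shSpt5 (0.0175 to 0.0575), and the other knockdown libraries were at 0.319 (shSpt4, 0.255 to 0.396) and 0.501 (shNelfE, 0.419 to 0.599). The domain at 44917000 to 44919999 had 88, 53, 7 and 73 tags, a ratio of 0.0809 in shSpt5 (0.0316 to 0.174). Another at 44905000 to 44907999 had 73, 28, 9 and 49 tags, a ratio of 0.125 (0.0552 to 0.251). These 3 domains were among the 5 lowest in shSpt5, and since they lie within 15 kb they are not independent of each other. Over the 25 kb from 44900000 to 44924999, bins outside the domains included, the libraries held 782, 323, 75 and 496 tags, and shSpt5 was the lowest of the 4 in 23 of 25 bins. No bin there had more than 8 tags in shSpt5, a mean of 0.963 normalised tags per kb, against 9.87 in shControl. The stretch of 25 kb was chosen after its values were seen.

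At other domains low in shSpt5, shSpt4 and shNelfE kept more tags. Chromosome 13, 55322000 to 55325999, had 138, 89, 15 and 128 tags, a ratio of 0.111 (0.0602 to 0.189) in shSpt5 and of 1.00 (0.781 to 1.28) in shNelfE. Chromosome 4, 153998000 to 154001999, had 84, 59, 10 and 65 tags (shSpt5 ratio 0.121, 0.0560 to 0.234), and chromosome 4, 132961000 to 132963999, had 60, 30, 9 and 41 (0.153, 0.0666 to 0.309). Chromosome 7, 27038000 to 27043999, a 6 kb domain, had 283, 103, 40 and 156 tags, with ratios of 0.436, 0.144 (0.101 to 0.201) and 0.595. In all 6 of its bins shSpt5 held 3 to 10 tags where shControl held 13 to 98. Chromosome 11, 8332000 to 8334999, had 79, 28, 12 and 69 tags (0.154, 0.0766 to 0.285). These 8 lowest domains were picked by their shSpt5 ratio, which by itself favours a low value in shSpt5.

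Only 6 domains were called higher in shSpt5, and 4 of them had many reads of a second category. Chromosome 9, 3025000 to 3027999, had 86, 148, 196 and 143 tags, a ratio of 2.32 (1.79 to 3.02). The ratio was 2.25 at chromosome 9, 3000000 to 3002999, with 56, 89, 124 and 76 tags. It was 2.08 at chromosome 5, 3000000 to 3002999, with 223, 334, 457 and 301 tags, and 2.10 at chromosome 14, 18208000 to 18210999, with 83, 129, 171 and 107. In these 4 domains the second read category of the files, whose meaning the headers do not state, made up 22.6% to 54.5% of the reads, against a median of 0.101% over all domains. Of the 960 domains, 50 had at least 10% of such reads. Their median ratio was 0.744 in shSpt5, against 0.582 in the other 910 domains, and without those 50 domains 2 higher calls were left. The 2 were chromosome 3, 145586000 to 145590999, with 111 tags in shControl and 236 in shSpt5 (2.16, 1.72 to 2.73), and chromosome 3, 129205000 to 129209999, described with shSpt4. Scaled by windows without dense bins, no domain was called higher in shSpt5, and scaled by the median ratio of all runs, 35 were. The share of all runs called under these scalings was not counted.

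The shSpt4 library was closer to the control than shSpt5 was. Its ratio was below 1 at 750 domains, with a median log2 ratio of -0.29 (-0.32 to -0.27) and a middle 80% from 0.542 to 1.16. It had 78 domains called lower (8.13%) and 7 called higher, where 10.8% of all runs were called lower and 0.825% higher. When the control library was left out of the rule and 30 tags per bin were asked of the other 3, the median was -0.23 over 804 domains and 43 were called lower. The lowest ratio was at chromosome 11, 51492000 to 51494999, with 171, 36, 45 and 117 tags (0.252, 0.171 to 0.363). Chromosome 12, 87407000 to 87410999, had 229, 49, 56 and 197 tags (0.256, 0.184 to 0.350), and chromosome 17, 36653000 to 36655999, had 227, 51, 55 and 123 (0.269, 0.195 to 0.366). In all 3 domains shSpt4 and shSpt5 had like ratios, from 0.246 to 0.269, and shNelfE was higher, at 0.738, 0.928 and 0.585.

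A few of the lowest domains in shSpt4 kept more tags in shSpt5. Chromosome 10, 126741000 to 126744999, had 76, 19, 59 and 36 tags, so that its ratio was 0.299 in shSpt4 (0.171 to 0.50) and 0.790 in shSpt5 (0.552 to 1.12). Chromosome 5, 119930000 to 119932999, had 145, 33, 75 and 77 tags, and chromosome 11, 22758000 to 22760999, had 139, 36, 70 and 61. Their shSpt4 ratios were 0.273 and 0.310 and their shSpt5 ratios 0.526 and 0.512. The others of the 8 lowest were chromosome 7, 30174000 to 30176999, with 68, 16, 28 and 42 tags, and chromosome 18, 61751000 to 61753999, with 88, 21, 22 and 28.

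The highest ratio of any knockdown library was in shSpt4. Chromosome 3, 129205000 to 129209999, had 57, 151, 115 and 43 tags. The ratios were 3.17 (2.33 to 4.38), 2.05 (1.48 to 2.87) and 0.814 (0.535 to 1.23), and all 5 of its bins were highest in shSpt4 by normalised tags. Its second-category share was 0. Chromosome 10, 56064000 to 56067999, had 154, 263, 134 and 112 tags (shSpt4 ratio 2.04, 1.67 to 2.51). Chromosome 8, 46522000 to 46525999, had 58, 102, 25 and 72, so that its ratio was 2.11 in shSpt4 (1.51 to 2.96) and 0.439 in shSpt5 (0.263 to 0.712). Chromosome 10, 36826000 to 36828999, had 32, 60, 40 and 22 tags (2.25). At chromosome 3, 148925000 to 148927999, the counts were 60, 103, 37 and 41 (2.06), and at chromosome 11, 102294000 to 102296999, they were 28, 47, 22 and 37 (2.01). The domain on chromosome 9 at 3025000, named with shSpt5, had a ratio of 2.06. Scaled by windows without dense bins, 1 higher call was left, and scaled by the median ratio of all runs there were 20.

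The shNelfE library was the most even across the domains. Its ratio was below 1 at 859 domains, with a median log2 ratio of -0.40 (-0.42 to -0.38) and a middle 80% from 0.596 to 1.01. The standard deviation of its log2 ratios was 0.33, against 0.47 in shSpt4 and 0.62 in shSpt5. It had 20 domains called lower (2.08%) and 1 called higher, where 7.06% of all runs were called lower and 0.317% higher. Short runs that had at least the 120 tags a domain must have were called lower at 4.07%, and their standard deviation was 0.34. With 1 library per group the difference between domains and short runs has no test.

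Among the 8 lowest domains in shNelfE, chromosome 17, 35476000 to 35478999, stood apart from the other libraries. It had 77, 34, 57 and 15 tags, with a ratio of 0.210 in shNelfE (0.112 to 0.369) and 0.753 in shSpt5 (0.525 to 1.07). Reads of the second category were 10.6% there. A pair of domains on chromosome 18, 61751000 to 61753999 and 61763000 to 61765999, had shNelfE ratios of 0.343 and 0.455, and were low in shSpt4 (0.286 and 0.447) and in shSpt5 (0.254 and 0.184) too. Of the others, 4 had shSpt5 ratios of 0.222 to 0.348, below their shNelfE ratios of 0.409 to 0.440. They were on chromosome 8 (3597000 to 3599999), on chromosome 11 (72392000 to 72394999) and on chromosome 3 (41592000 to 41594999 and 51296000 to 51298999). Chromosome 10, 128145000 to 128147999, had 51, 27, 43 and 20 tags and a shNelfE ratio of 0.423 (0.239 to 0.722). The 1 domain called higher was chromosome 2, 51932000 to 51934999, with 55, 91, 28 and 102 tags. Its ratios were 2.0 in shNelfE (1.43 to 2.83) and 0.518 in shSpt5 (0.316 to 0.831).

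**Figure D2:**
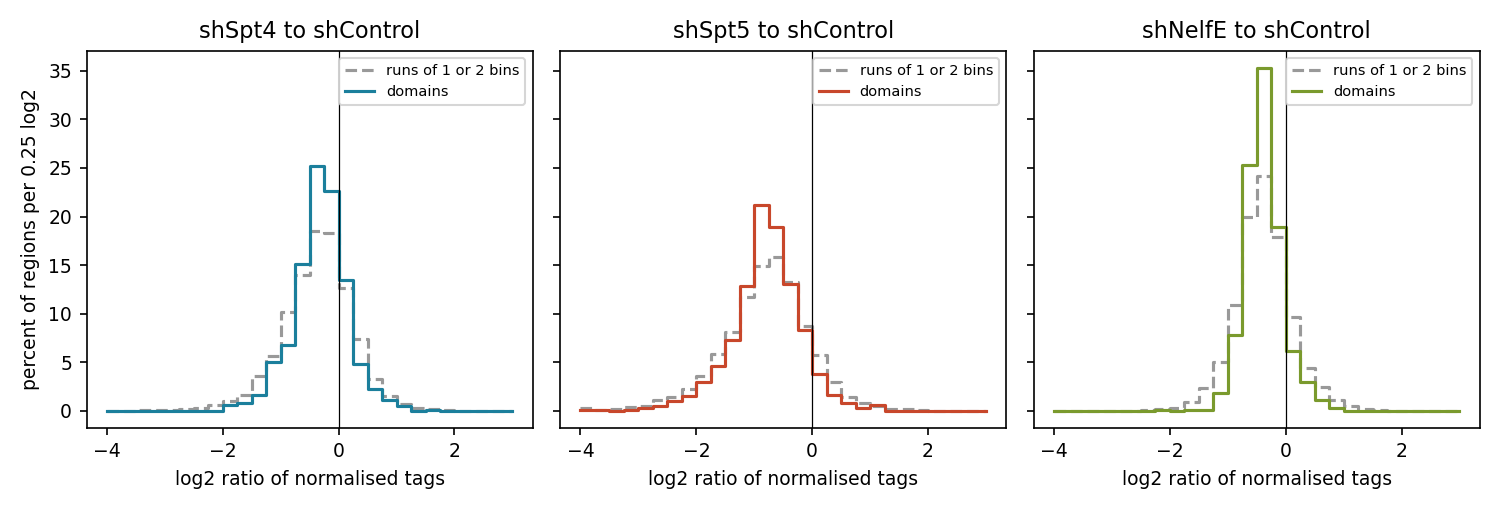
Percent of regions in each step of 0.25 of the log2 ratio of normalised tags to shControl, for the 960 domains (solid) and the 10073 runs of 1 or 2 bins (dashed), 1 panel for each knockdown library. Domains and short runs centre at like values, near -0.3, -0.76 and -0.4, and the short runs, which hold fewer tags, spread more widely.

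The comparisons among the knockdown libraries lie within a flow cell. The shSpt5 library was below shSpt4 at 819 domains, with a median log2 ratio of -0.46, and 135 domains were called lower and 5 higher, where 13.4% of all runs were called lower and 1.01% higher. The lowest were the domains of chromosome 13 at 44913000 and 44917000, with ratios of 0.104 and 0.112, and chromosome 12, 81796000 to 81799999, with 101 tags in shSpt4 and 17 in shSpt5 (0.143). The highest was chromosome 10, 126741000 to 126744999, with 19 against 59 tags (2.64, 1.55 to 4.69). Chromosome 2, 172240000 to 172242999, had 21 against 62 (2.51), and chromosome 1, 71584000 to 71587999, had 86 against 204 (2.01).

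Between shNelfE and shSpt4 the median was near 0, at -0.11, with 17 domains called lower and 16 higher, where 2.66% and 3.17% of all runs were called. The largest excess in shNelfE was at chromosome 12, 87407000 to 87410999, with 197 tags against 49 (3.62, 2.64 to 5.06). Chromosome 7, 73300000 to 73302999, had 76 against 23 (2.98) and chromosome 11, 51492000 to 51494999, had 117 against 36 (2.93). The largest deficits were at chromosome 12, 27927000 to 27929999, with 36 against 127 tags (0.255), chromosome 3, 129205000 to 129209999 (0.257) and chromosome 10, 36826000 to 36828999 (0.330). Between shNelfE and shSpt5 the median was 0.35, with 128 domains called higher and 4 lower, where 13.5% and 1.07% of all runs were called. The ratio of shNelfE to shSpt5 was 15.1 at chromosome 13, 44913000 to 44915999, 11.1 at 44917000 to 44919999 and 9.05 at 55322000 to 55325999. The lowest were chromosome 17, 35476000 to 35478999 (0.279), chromosome 3, 129205000 to 129209999 (0.397) and chromosome 8, 114618000 to 114620999 (0.443).

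Read by itself at a fixed number of tags, the shSpt5 library kept the fewest domains 3 bins wide. The libraries were thinned to equal depth, and the longest run of bins with at least 10 tags, the minimum divided by the 4 libraries, was taken inside each domain. This count follows a library's level as well as its width, and shSpt5 held 0.617 times the control's normalised tags in domains. In shControl 823 domains (85.7%) were still 3 bins wide, in shSpt4 697 (72.6%), in shNelfE 668 (69.6%) and in shSpt5 489 (50.9%). All 4 libraries kept 3 bins at 330 domains, and only the control did at 81. In shSpt5, 67 domains had no bin of 10 tags, against 1 in shControl and 6 each in shSpt4 and shNelfE. The reverse was seen too, as 65 domains were 3 bins wide in shSpt5 and not in shControl. The control also weighed most in choosing the domains. When it had no part in the choice, 655, 656, 486 and 629 of 804 domains were still 3 bins wide (shControl, shSpt4, shSpt5, shNelfE). The shSpt4 library was then not below the control, but that choice favours the knockdown libraries in turn.

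**Figure D3:**
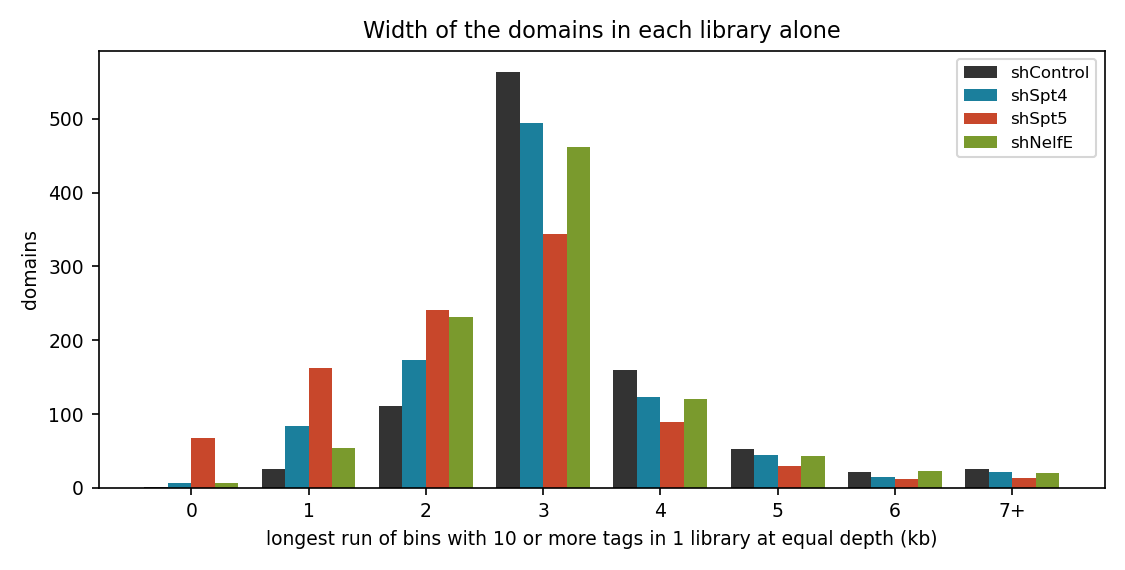
Number of domains by the longest run of 1 kb bins with at least 10 tags inside the domain, counted in each library at equal depth, with 1 bar for each library. The bar at 3 kb falls from shControl to shSpt5, and shSpt5 has the most domains at 0 and 1 kb.

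Measured against a domain's own crest, the shape changed little. The strongest bin, chosen on the libraries together at equal depth, held a median of 48.8% of a domain's tags in the control. This share was 48.4% with shSpt4, 48.3% with shNelfE and 46.8% with shSpt5. Within domains the median difference to the control was -3.02 percentage points in shSpt5 (-3.90 to -2.05), and the share was lower at 581 domains and higher at 375. In shSpt4 and shNelfE the median differences were -0.98 and -0.92. Bins with at least 25% of the tags of the strongest bin made up 78.0% of domain bins in the control and 82.4% in shSpt5, with 78.6% for shSpt4 and 79.7% for shNelfE between them. Domains with 3 or more such bins made up 65.3% in the control, 65.5% in shSpt4, 69.9% in shSpt5 and 66.25% in shNelfE. Taken over all domains, the profile was thus slightly flatter in shSpt5. It was not measured apart in the domains that were narrower at a fixed number of tags.

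The ratio to the control also differed along the domain. Without the 70 kb domain and the fullest one, the strongest bins of 958 domains held 27.4 normalised tags per kb in the control, and 22.5, 16.1 and 20.8 in shSpt4, shSpt5 and shNelfE. For shSpt5 the ratio of summed tags was 0.587 in the strongest bin (0.581 to 0.594), 0.640 in the bins next to it (0.632 to 0.649) and 0.623 further away inside the domain (0.611 to 0.636). For shNelfE these ratios were 0.760, 0.785 and 0.773, and for shSpt4 0.822, 0.856 and 0.817. Inside 1 domain, the log2 ratio of the other bins exceeded that of the strongest bin by a median of 0.19 in shSpt5 (577 domains above, 381 below), 0.07 in shSpt4 and 0.06 in shNelfE. The control's tags helped to choose the strongest bin, which by itself can lower the ratio there. A choice of that bin on the other 2 libraries was made for its share of tags, not for these ratios. Just outside, the control level was 1.53 normalised tags per kb in the first kb past the ends, bins that the rule keeps low. There the ratios were 0.903, 0.874 and 0.909, nearer to 1 than inside.

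**Figure D4:**
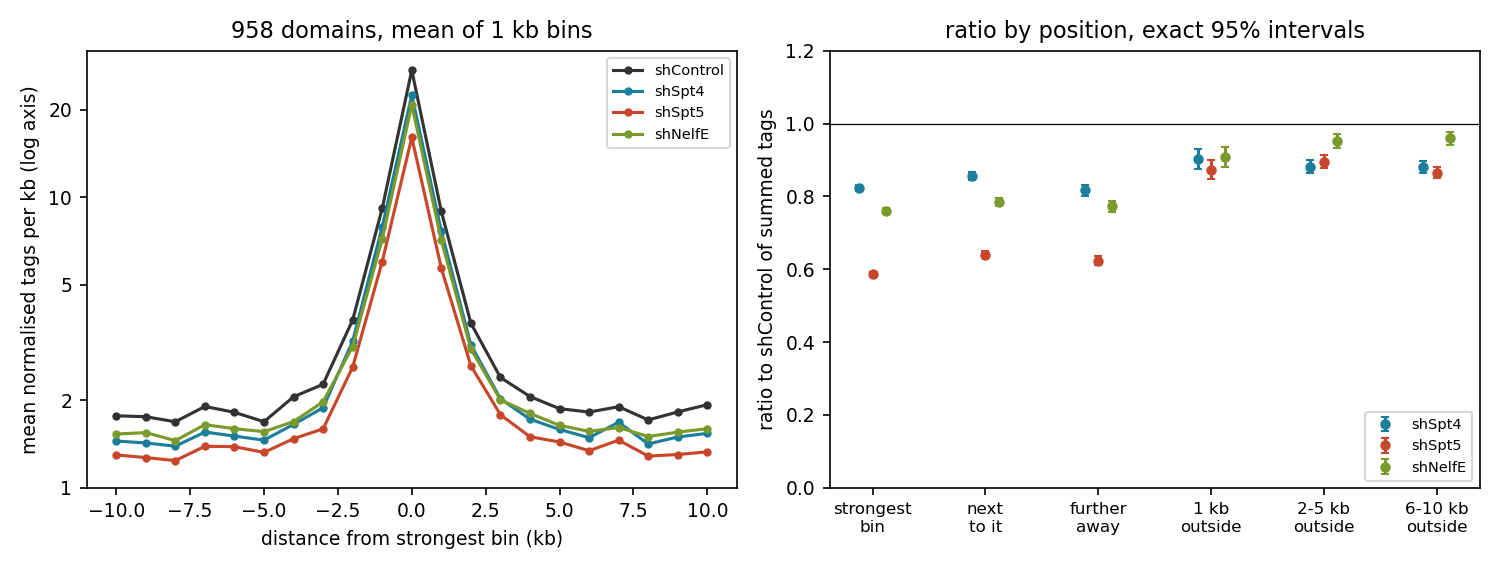
Left, mean normalised tags per kb (log axis) in 1 kb bins around the strongest bin of 958 domains, neighbouring runs included, with 1 line for each library. Right, ratio to shControl of tags summed over the domains by position, with exact 95% intervals and with bins of neighbouring runs left out outside the ends. The shSpt5 ratios are near 0.6 inside the domains and near 0.87 to 0.90 outside them.

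The 2 ends of a domain did not always move together. The ratio to the control was taken in the first and the last bins of each domain, leaving out the middle bin where the width was odd. The exact intervals of the 2 ends lay apart at 54 domains in shSpt5 (5.62%), 20 in shSpt4 (2.08%) and 15 in shNelfE (1.56%). Between the bins of runs of 2 bins they lay apart in 3.44%, 1.57% and 1.26%. Those bins adjoin, while the ends of domains of odd width do not, so the shares are not like for like. At chromosome 8, 114740000 to 114742999, the first bin had 112 tags in shControl and 58 in shSpt4 (0.620), and the last had 34 and 1 (0.0352, 0.000867 to 0.210). In shNelfE the last bin of this domain was low too, with 5 tags (0.159, 0.0484 to 0.408). Chromosome 8, 109781000 to 109783999, had 45 tags in shControl and 56 in shSpt5 in its first bin (1.27) and 19 and 3 in its last (0.161). Chromosome 5, 109796000 to 109798999, had 25 and 8 tags in its first bin (0.326, 0.127 to 0.745) and 7 and 20 in its last (2.91, 1.18 to 8.14). Chromosome 16, 8652000 to 8655999, kept its first 2 kb in shSpt4, with 47 tags against 58 (0.971), and had 13 against 69 in its last 2 kb (0.226, 0.114 to 0.412). These 4 domains were picked from those whose ends differed most.

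By density, values are a description only, since the same tags set the classes, the minimum and the ratios. In 4 classes of 240 domains, from fewest to most tags per kb, the medians (log2) were -0.42, -0.33, -0.27 and -0.19 in shSpt4 and -0.92, -0.84, -0.74 and -0.72 in shSpt5. In shNelfE they were -0.34, -0.43, -0.44 and -0.40. By width, the median in shSpt5 was -0.77 at 3 kb, -0.75 at 4 kb, -0.80 at 5 or 6 kb and -0.72 at 7 kb or more. Domains with 3 or more summits had a median of -0.86 in shSpt5, against -0.75 in those with 1. With another run within 10 kb the shSpt4 median was -0.35, and without one it was -0.23.

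The widest domains followed the same order of libraries with exceptions. The domain of 13 kb on chromosome 8, 87543000 to 87555999, had 1663, 1094, 966 and 1190 tags, with ratios of 0.788, 0.591 and 0.772. Its highest bin, the tenth, followed in shSpt5 only, with 122 normalised tags in shControl, 125 in shSpt4, 92.1 in shSpt5 and 142 in shNelfE. Chromosome 15, 102067000 to 102078999, was 12 kb wide with 5 summits and had 473, 244, 289 and 324 tags. Its ratios were 0.618 in shSpt4 and 0.622 in shSpt5, so here both were alike. The 11 kb plateau on chromosome 7 had 247, 143, 74 and 175 tags and a shSpt5 ratio of 0.305 (0.232 to 0.397), and the 9 kb plateau on chromosome 8 had 194, 133, 43 and 151 and a ratio of 0.226 (0.158 to 0.315). Chromosome 8, 125774000 to 125782999, also 9 kb, had 400, 233, 102 and 274 tags (0.259, 0.207 to 0.323). Chromosome 1, 64665000 to 64673999, had 472, 194, 199 and 296 tags, and was low in shSpt4 (0.492) and shSpt5 (0.429) alike. Chromosome 1, 88134000 to 88142999, had 378, 232, 272 and 245 tags and ratios of 0.735, 0.732 and 0.699, with no library apart from the others.

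Some wide domains kept their tags in 1 or more knockdown libraries. Chromosome 5, 123395000 to 123404999, had 661, 564, 433 and 378 tags, and its ratio was 1.02 in shSpt4 (0.912 to 1.145) and lowest in shNelfE, at 0.617 (0.542 to 0.701). Chromosome 14, 53523000 to 53532999, had 448, 326, 343 and 405 tags and ratios of 0.872, 0.779 and 0.975. By contrast, chromosome 19, 5843000 to 5851999, had 598, 386, 310 and 477 tags, 57.1% of them in its bin 3. It was below the control in each knockdown library, with ratios of 0.773, 0.527 and 0.861 (0.761 to 0.972 in shNelfE).

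Among the fullest domains, ratios ran from well below 1 to above it. Chromosome 17, 39451000 to 39456999, was the fullest, with 4533, 3097, 2706 and 3723 tags and ratios of 0.818, 0.607 and 0.886. Reads of the second category were 19% there. The whole cell extract library was not used, so the part of multi-copy sequence in the tags of this domain was not tested. Up to 58.0% of the signed positions of a bin were filled there in shControl, which limits how high counts can go when each position counts as 1 tag. Chromosome 1, 88355000 to 88360999, had 791, 458, 368 and 562 tags and ratios of 0.694, 0.473 and 0.767. Chromosome 17, 33728000 to 33734999, had 764, 561, 495 and 561 tags and ratios of 0.879, 0.659 and 0.792. Chromosome 10, 39946000 to 39948999, had 494, 529, 550 and 541 tags and ratios of 1.28 (1.13 to 1.45), 1.13 (1.00 to 1.28) and 1.18 (1.04 to 1.34), and chromosome 1, 72187000 to 72189999, had ratios of 1.24, 1.05 and 1.34. Scaled by windows without dense bins, these values are divided by 1.27, 1.47 and 1.24, which puts shSpt5 below the control at both, shNelfE below it at the first and shSpt4 below it at the second. Scaled by the median ratio of all runs, they are divided by 0.804, 0.591 and 0.762 and stay above 1.

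The 70 kb domain on chromosome 11, 3030000 to 3099999, did not follow the rest. It had 2694, 2118, 2697 and 2515 tags, with ratios of 0.942 (0.889 to 0.997), 1.02 (0.965 to 1.07) and 1.01 (0.954 to 1.06). Its bins held a median of 130 tags over the 4 libraries, from 41 to 661. At equal depth its longest run of bins with 10 tags was 50 in shSpt5, 55 in shNelfE, 36 in shControl and 31 in shSpt4. Reads of the second category were 17% of its reads. It is 1 of 8 domains that start within the first 3.2 Mb of a chromosome, a group formed after the values were seen. Of these 8, 6 had at least 10% of second-category reads, and in each knockdown library 6 had ratios above 1, with medians of 1.49, 1.69 and 1.41. The part of such reads in these ratios was not tested.

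Domains of chromosome 13 differed from those of other chromosomes. The median log2 ratio of its 38 domains was -0.25 in shSpt5, while the other 18 chromosomes had medians from -0.87 to -0.67. In shSpt4 and shNelfE it was -0.09 and -0.18, the values nearest to 0 among the chromosomes. The difference lay in the stretch from 21 to 24 Mb. Mouse chromosome 13 is known to carry the largest cluster of histone genes in about this place, although the files hold no annotation and its position in this build was not checked here. Those genes are short, lie close together and are strongly transcribed in dividing cells, and many are near copies of each other. The boundaries of the stretch were set after the values were seen.

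The 15 domains of that stretch, 48 kb in all, had median ratios of 1.21, 1.23 and 1.19, and none was called lower or higher. Ratios were above 1 at 13 of them in shSpt4 and at 11 each in shSpt5 and shNelfE. Together they held 3139, 3032, 3442 and 3359 tags. The other 23 domains of chromosome 13 had a median ratio of 0.596 in shSpt5, and the 922 domains on other autosomes had 0.583. Single domains of the stretch varied. Chromosome 13, 23577000 to 23579999, had 116, 171, 177 and 174 tags, with ratios of 1.77 (1.39 to 2.26), 1.55 (1.22 to 1.98) and 1.62 (1.27 to 2.07). Chromosome 13, 21760000 to 21762999, had 115, 142, 200 and 141 tags, highest in shSpt5 at 1.77 (1.40 to 2.25). The fullest, at 23768000 to 23771999, had 529, 419, 461 and 581 tags and ratios of 0.949, 0.886 and 1.19, and the one at 21786000 to 21788999 had 464, 303, 369 and 364 and ratios of 0.782, 0.809 and 0.846. At least 10% of reads were of the second category in 7 of the 15, and the part of near copies in these ratios was not tested. Scaled by windows without dense bins, the median ratios of the stretch would be divided by 1.27, 1.47 and 1.24, which brings all 3 below 1. Scaled by the median ratio of all runs, they would be divided by 0.804, 0.591 and 0.762, which keeps all 3 above 1. Either scaling divides the ratios of all other domains by the same factors.

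**Figure D5:**
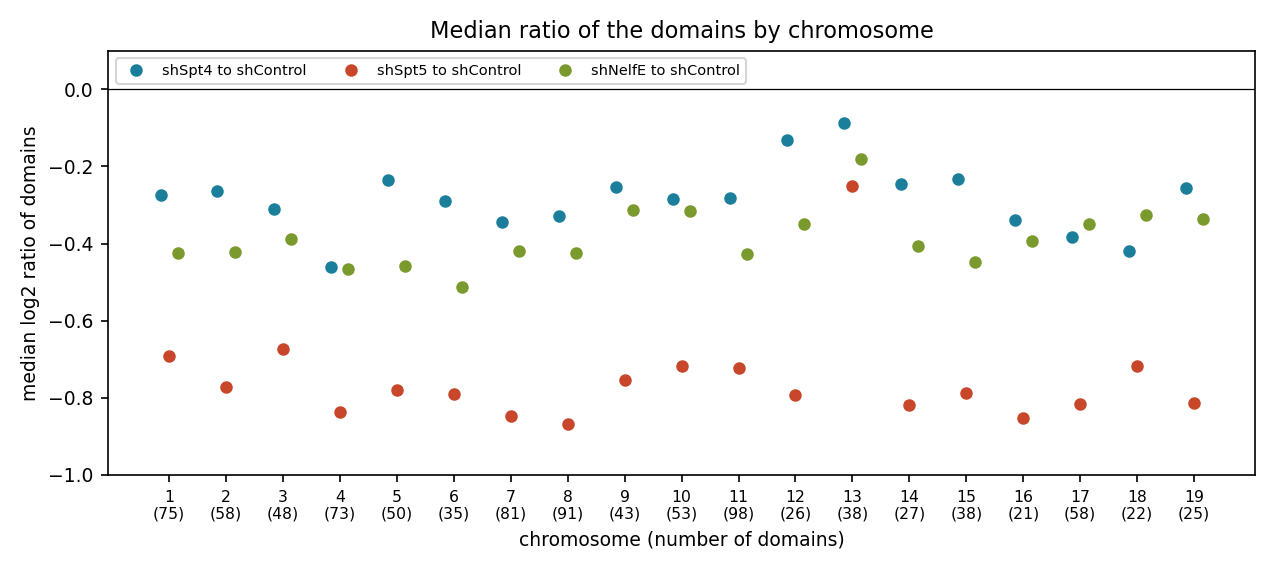
Median log2 ratio to shControl of the domains of each chromosome, with 1 point for each knockdown library and the number of domains in brackets. On chromosome 13 the shSpt5 point lies at -0.25, and on the other chromosomes at -0.67 or below.

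Groups of neighbouring domains differed among and within themselves. The 5 domains on chromosome 1 from 88271000 to 88360999 held 1965, 1166, 921 and 1262 tags. Each was below the control in each knockdown library, with ratios of 0.357 to 0.605 in shSpt5. The 6 domains on chromosome 8 from 87865000 to 87962999 had a summed ratio of 0.525 in shSpt5 (0.486 to 0.566), and single ratios from 0.418 to 0.830. In the 6 on chromosome 11 from 97442000 to 97519999, neighbours differed more, from 0.325 to 1.38 in shSpt5 and from 0.387 to 1.44 in shSpt4. The 5 on chromosome 4 from 140554000 to 140601999 had summed ratios of 0.631, 0.558 and 0.887 (0.804 to 0.978 in shNelfE).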

How the data were processed

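Aligned read positions of 4 Pol II libraries, 1 library per group, were used. The deposited values were signed positions, with the strand as sign, in 2 read categories. Per the file headers, Bowtie placed the reads with the options -n 2 -l 36 -e 70 -k 2 -m 2, and the build mm8 is named in the submitters' processing notes. No version of Bowtie is given in the sources used here. Repeated positions (8.13% to 17.7% of reads) were reduced to 1 tag, plus tags were moved right and minus tags left by 41 bp, and tags were counted in 1 kb bins. Minus-strand positions reached closer to the first base of the mitochondrial genome than a read is long, so both strands appear to give the leftmost base, and bins may be off by part of a read.

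Normalised tags are tags per 1000000 kept tags. Ratios carry exact 95% binomial intervals of a domain's tags given their sum, and log2 ratios a pseudocount of 0.5 tags. Intervals of medians are order statistics over domains, which are not replicates. The call needs a ratio of at least 2 or at most 0.5. No p-value was computed. Calls were tested on simulated counts that held counting error only, so this test does not cover variation between libraries of the same group. Named domains are the 10 with most tags, the 10 widest, up to 8 lowest and 8 highest called against the control, up to 3 each among knockdowns, and the extremes of shape and of the minimum. Members and lists were chosen with earlier results of these data known. Positions are as numbered in the files. The gene tables at hand describe another build, so no gene was assigned and no sequence is shown. The whole cell extract library was not used here. Python 3.11.15, numpy 2.4.6, scipy 1.17.1 and pandas 2.3.3 were used. Alternatives are in the closing section.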

Additional observations from a re-analysis of the deposited data

Results flagged for a closer look

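On chromosome X, which the domain rule leaves out, the same rule gave 16 domains among 268 runs, a signal in data the comparisons did not use. They held 2467, 2163, 1454 and 1975 tags (shControl, shSpt4, shSpt5, shNelfE). The ratio of the sums to the control was 1.05 for shSpt4 (0.991 to 1.11), 0.60 for shSpt5 (0.562 to 0.640) and 0.864 for shNelfE (0.814 to 0.917), where autosomal domains had 0.834, 0.617 and 0.777.

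Reads of the second category, used only as a share, were present in domains. The largest share, 74.7% or 1186 reads, was at chromosome 13, 23550000 to 23552999, in the stretch from 21 to 24 Mb, with 80, 85, 110 and 58 first-category tags in the libraries in the same order. The next were chromosome 13, 21741000 to 21743999 (67.5%), and chromosome 2, 181846000 to 181848999 (60.5%). No such read was found in 465 domains.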

How the results depend on the processing

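No paired analysis was possible because each group held 1 library. Of 324 values of 26 summary results under other settings, 213 stayed close to the main value, 109 moved and 2 changed sign. Of 1296 values of single domains, 196 left the exact interval of the main value and none changed sign among called domains. Calls below are given as lower/higher. The share of all runs called was counted at the main setting only, so the counts below do not show how domains differ from other runs. Scaled by windows without dense bins, which shifted log2 ratios by 0.35, 0.55 and 0.31, calls against the control were 192/1 (shSpt4), 714/0 (shSpt5) and 129/0 (shNelfE), with medians of -0.64, -1.32 and -0.71. The pairs then gave 212/2 and -0.66 for shSpt5 to shSpt4, a median of -0.068 for shNelfE to shSpt4, and 2/212 and 0.60 for shNelfE to shSpt5. Scaled by the median of all runs, the 2 medians that changed sign were 0.023 for shSpt4 to shControl and -0.010 for shNelfE to shSpt5. This scaling sets the centre of all runs to 0 by construction. Calls were then 26/20, 67/35 and 2/6 against the control, 53/21 for shSpt5 to shSpt4 and 16/72 for shNelfE to shSpt5, and the other medians were -0.0049 (shSpt5), -0.011 (shNelfE), -0.037 (shSpt5 to shSpt4) and -0.043 (shNelfE to shSpt4).

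A minimum of 60 tags per bin left 453 domains, with calls of 28/4, 128/3 and 5/0 against the control, 55/0 for shSpt5 to shSpt4, 7/4 for shNelfE to shSpt4 and 0/46 for shNelfE to shSpt5. Medians were -0.25 (shSpt4) and -0.16 (shNelfE to shSpt4), and 441 (shControl), 418 (shSpt4) and 431 (shNelfE) domains stayed 3 bins wide. At 4 or more bins, 308 domains gave 24/3, 94/2 and 3/0, then 49/3, 6/3 and 1/53 for the pairs, medians of -0.38 (shNelfE) and -0.077 (shNelfE to shSpt4), and 290, 260, 194 and 265 domains 3 bins wide. The 472 domains with no other run within 10 kb, a choice made after seeing the data, gave 22 (shSpt4), 135 (shSpt5) and 8 (shNelfE) lower calls, 60/1, 9/3 and 1/50 for the pairs, medians of -0.23 (shSpt4) and -0.18 (shNelfE to shSpt4), and 385, 361, 248 and 317 domains 3 bins wide. Fewer domains enter under these 3 settings, which lowers counts by construction.

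With all tags kept, 1183 domains qualified, and shNelfE had 38/0 calls, shNelfE to shSpt4 had 31 higher, shNelfE to shSpt5 had 7 lower and shSpt5 to shSpt4 had 10 higher. Medians were -0.33 (shSpt4) and -0.84 (shSpt5), and the strongest-bin difference of shSpt5 was -4.22 points. The rule without shControl gave 804 domains, 43 (shSpt4), 204 (shSpt5) and 10 (shNelfE) lower calls and 2 for shNelfE to shSpt5. Its medians were -0.23, -0.72, -0.37, -0.15 (shNelfE to shSpt4) and 0.30 (shNelfE to shSpt5), with strongest-bin differences of -1.73 points in shSpt4 and in shNelfE. The 1 higher call in shNelfE went to 0 with bins moved by 500 bp, with thinning before the rule and with background subtracted. Moved bins left 3 higher calls in shSpt5 and 3 for shSpt5 to shSpt4, thinning gave 13 lower calls in shNelfE and 3 higher for shSpt5 to shSpt4, and leaving out domains with 10% or more second-category reads left 2 higher calls in shSpt5. The cause of these moves was not tested. Tags not moved, the strongest bin chosen on the other 2 libraries, and leaving out the 70 kb and the fullest domain moved no summary result. The last 2 of these were also chosen after seeing the data. Domains near the minimum have few tags per library and wide intervals, and changes under 2-fold are not calls at any depth.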

Other observations

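Tags of the plus strand made up a median of 50.0% of a domain's tags, and the middle 90% of domains had 45.5% to 54.6%. The extremes were 36.3% and 66.1%, and the latter was the domain with the largest share of second-category reads.

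Repeated positions were more frequent in domains than in short runs in each library, with 15.7% against 13.7% of reads in shControl, 12.5% against 11.8% in shSpt4, 20.6% against 20.1% in shSpt5 and 15.0% against 13.7% in shNelfE. The domain at chromosome 1, 72187000 to 72189999, had 45.6% in shControl and 52.6% in shSpt5. The part of this removal in the strongest bins was not tested.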
